A study of Rattus norvegicus with 12 samples.

Results

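The lysosome and vesicle trafficking genes described here are 23 genes, each read by 1 probe, out of 1710 genes that the authors' deposited tables name and 22523 probes on the Illumina RatRef-12 bead array. They were collected by gene symbol (Rab, Vps, Snx, Atp6, Lamp, Atg, Stx, Vamp, Tmed, Cop, Arf and cathepsin genes), by the words lysosom-, cathepsin or autophagy in the probe's definition, and by naming Scarb2, among the probes that these tables list. The tables hold the probes the authors found changed by rapamycin on these same arrays, so the choice rests on a readout. Of the members, 8 are listed for TGR-1 cells only, 12 for HO15.19 cells only and 3 for both.

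Cells of 4 groups were measured, with 3 arrays each and 12 in all. HO15.19 cells (c-Myc-/-) were exposed to 50 nM rapamycin or to the DMSO vehicle for 24 hr, and TGR-1 cells (c-Myc+/+) were exposed to 50 nM rapamycin or to DMSO for the same time. TGR-1 is an hrpt- subclone of the immortalized Rat-1 embryonic fibroblast line, and HO15.19 is a line derived from it in which both c-myc alleles were inactivated by homologous recombination. The doubling time is given as 45 to 60 hr for HO15.19 cells and 18 to 21.5 hr for TGR-1 cells. As each genotype is 1 line, the loss of c-Myc, the derivation of the line and its slower growth cannot be told apart. The methods state that the arrays of a group are independent biological replicates.

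Lysosomes break down material delivered by endocytosis and autophagy. Their acid hydrolases work at the low pH kept by the vacuolar proton pump, and membrane proteins bring the hydrolases in and carry the products out. Vesicles reach them and other compartments through coats that bud vesicles, Rab GTPases that mark each membrane, and SNARE proteins that fuse vesicles with their targets. The kinase complex mTORC1, which rapamycin inhibits, is switched on at the lysosome's surface, and it holds back the factors TFEB and TFE3, which drive lysosomal genes through promoter motifs built around the E-box CACGTG. c-Myc with its partner Max binds the same E-box.

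The label fits the members in part. Cathepsins B and D, a proton pump subunit and the membrane protein Scarb2 are lysosomal, and most of the others act in vesicle traffic. Cops3 and Cops5 were caught by the letters Cop but belong to the COP9 signalosome, which takes the modifier Nedd8 off cullin ubiquitin ligases. Ift22 and Ift27, listed as Rabl5 and Rabl4, are Rab-like proteins of the transport particles of cilia, and Dennd5a was listed as Rab6ip1. No member belongs to the core autophagy machinery, which is described with the other genes of the pathway.

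All values are log2 signals after background correction and quantile normalization, and all 23 member probes were detected on every array. The mean raw signal per array was between 255 and 405, and 9605 to 10472 probes were detected per array. The Myc probe read 7.69 to 8.19 on the HO15.19 arrays and 8.97 to 9.76 on the TGR-1 arrays and was detected on all 12, and its place relative to the disrupted part of the gene is not known. Of the fibroblast markers with a named probe, Fn1, Col3a1, Col1a1 and Fbln1 were detected on all arrays, while Lum was detected on the HO15.19 arrays and on 0 of the TGR-1 arrays. Of the macrophage and leukocyte markers only Cd14 had a named probe, and it was detected on all arrays (6.91 to 8.02). No epithelial or endothelial marker had a named probe. A probe was called past the threshold where limma gave it a Benjamini-Hochberg adjusted p under 0.05 over the 10852 probes tested, together with an unadjusted p no higher than 0.01 and a change of 1.2-fold or more. The rapamycin change of a member in a line whose table lists it was used to choose it, so it is given as a description without a p, also where it is said to be past the threshold.

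The largest differences among the members lay between the lines, as they did over all probes tested. With DMSO, 8 of the 23 were higher and 3 lower in HO15.19 than in TGR-1 cells, where 15.7% of all probes tested were called higher and 15.7% lower, 31.4% in all. The median difference over the members was 0.23, against -0.01 over all probes tested, and it was above 0 for 16 of 23 members (69.6%) and for 48.6% of all probes. Set against the probes that the same tables list, of which 27.7% were higher and 27.8% lower, the members had more higher and fewer lower calls, a description of 23 genes to which no test was put. With rapamycin on both sides, 9 members were higher and 3 lower in HO15.19 cells, where 15.3% and 16.1% of all probes were. The same 8 were higher with either treatment, where 11.4% of all probes were, and 1 member, Ift27, was lower with either, where 11.1% were. The DMSO comparison shares its DMSO arrays with the changes that chose the members and the rapamycin comparison shares its rapamycin arrays with them, so both are given for the genes below.

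**Figure D1:**
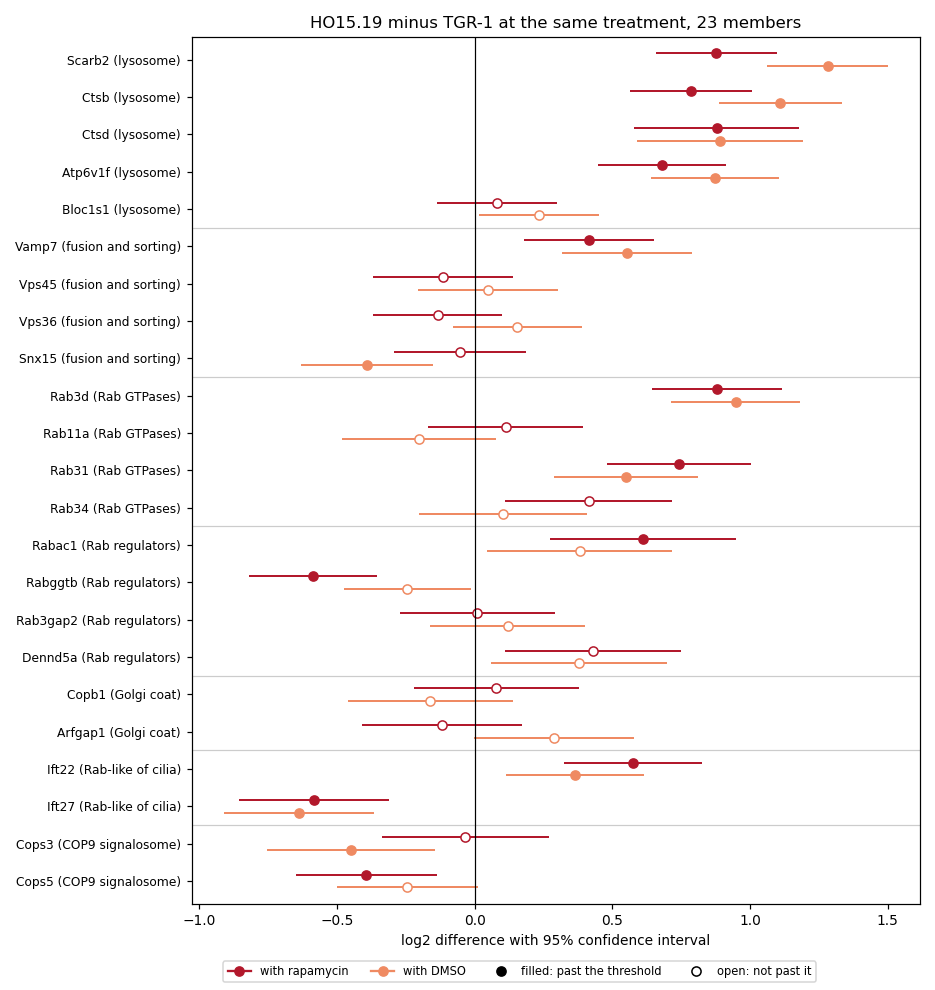
Difference between HO15.19 and TGR-1 cells (log2, horizontal axis) for the 23 members, with rapamycin (dark red) and with DMSO (orange), as points with 95% confidence intervals, filled where past the threshold. The first 4 lysosomal members, Scarb2, Ctsb, Ctsd and Atp6v1f, lie between 0.68 and 1.28 with either treatment.

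Scarb2 encodes LIMP-2, a lysosomal membrane protein that carries the enzyme glucocerebrosidase to the lysosome. It read 9.03, 9.07 and 9.13 in HO15.19 cells with rapamycin and 9.02, 8.85 and 8.89 in HO15.19 cells with DMSO, against 8.28, 8.16 and 8.15 in TGR-1 cells with rapamycin and 7.63, 7.61 and 7.67 in TGR-1 cells with DMSO. Every HO15.19 array lay above every TGR-1 array, whatever the treatment. In RNA from whole cultures, more RNA per cell and more cells that express the gene cannot be told apart. The difference of HO15.19 from TGR-1 was 1.28 ± 0.10 with DMSO (SE, n = 3 arrays a group, 2.43-fold, limma adjusted p = 5.55e-08), the widest of the 23, and 0.88 ± 0.10 with rapamycin (adjusted p = 3.90e-06). Its rapamycin change was 0.56 in TGR-1 cells (95% interval 0.34 to 0.78), the change for which the authors' table lists it, with no overlap between the treatments and past the threshold also when any 1 array was left out. In HO15.19 cells, for which it is not listed, the change was 0.16 (-0.06 to 0.37, adjusted p = 0.45), also without overlap but short of the threshold.

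Ctsb, the lysosomal cysteine protease cathepsin B, moved against Scarb2 under rapamycin. Its signal was 12.14, 12.10 and 12.14 in HO15.19 cells with rapamycin and 12.47, 12.66 and 12.68 with DMSO, against 11.32, 11.36 and 11.34 in TGR-1 cells with rapamycin and 11.40, 11.53 and 11.55 with DMSO. The treated arrays were the lower ones in both lines. In HO15.19 cells, for which it is listed, the change was -0.48 (-0.70 to -0.26), past the threshold but short of it without the second HO15.19 DMSO array (-0.45). In TGR-1 cells, for which it is not listed, the change was -0.15 (-0.37 to 0.06, adjusted p = 0.49). Between the lines it was higher in HO15.19 cells by 1.11 ± 0.10 with DMSO (2.16-fold, adjusted p = 3.76e-07) and by 0.79 ± 0.10 with rapamycin (adjusted p = 1.51e-05).

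**Figure D2:**
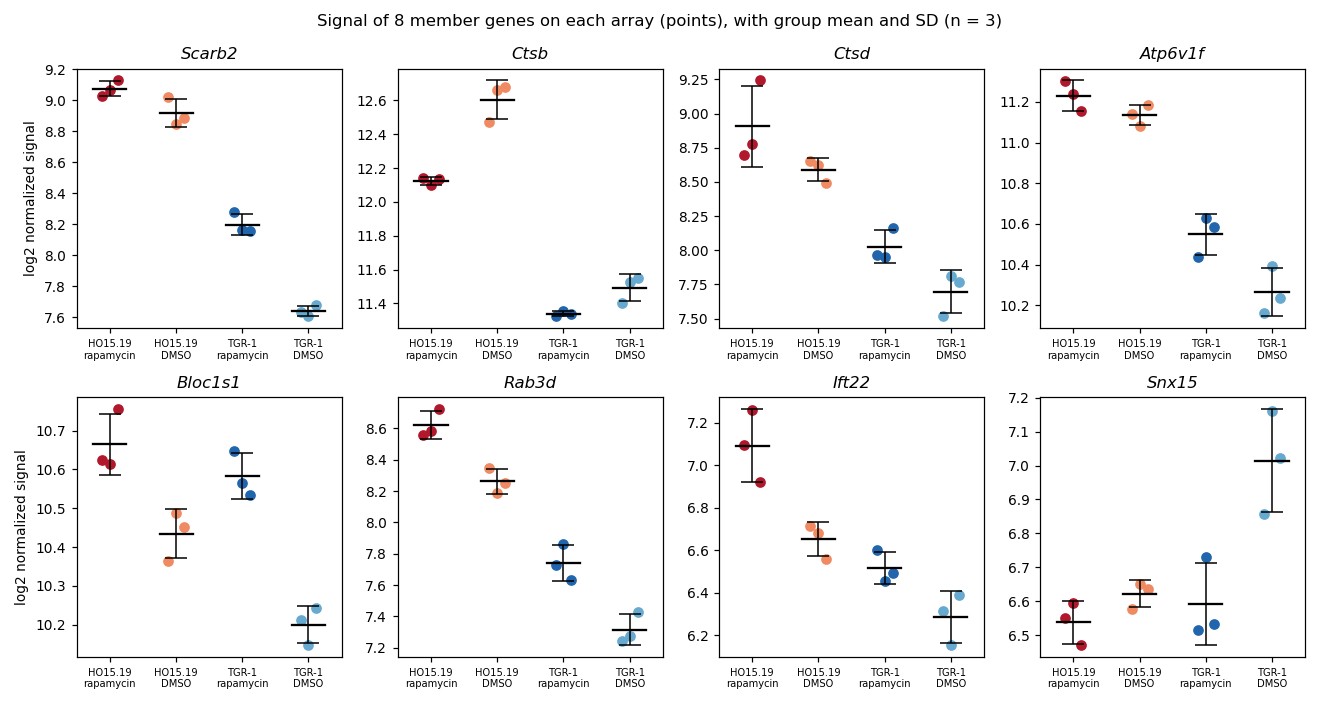
Log2 normalized signal (vertical axis, with its own range in each panel) of 8 members on each array, by group, with the group mean and SD (n = 3). For Scarb2, Ctsb, Ctsd, Atp6v1f and Rab3d all 6 HO15.19 arrays lie above all 6 TGR-1 arrays, while Bloc1s1 and Snx15 have their TGR-1 DMSO arrays apart from the other 9.

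The aspartic protease cathepsin D, Ctsd, read 8.70, 8.77 and 9.24 in HO15.19 cells with rapamycin and 8.65, 8.62 and 8.49 with DMSO, against 7.97, 7.95 and 8.16 in TGR-1 cells with rapamycin and 7.52, 7.81 and 7.77 with DMSO. Treated arrays lay above untreated ones in both lines, with changes of 0.32 in HO15.19 cells (0.02 to 0.61) and 0.33 in TGR-1 cells (0.03 to 0.63, adjusted p = 0.22). It is listed for HO15.19 cells only, and the TGR-1 change missed the threshold. Ctsd was higher in HO15.19 cells by 0.89 ± 0.14 with DMSO (1.86-fold, adjusted p = 9.65e-05) and by 0.88 ± 0.14 with rapamycin (adjusted p = 0.000104).

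Atp6v1f is subunit F of the V1 sector of the proton pump, the part that turns over ATP on the cytosolic side. Its signals were 11.30, 11.24 and 11.15 in HO15.19 cells with rapamycin and 11.14, 11.08 and 11.18 with DMSO, against 10.44, 10.63 and 10.58 in TGR-1 cells with rapamycin and 10.16, 10.39 and 10.24 with DMSO. The lines did not overlap, and the treatments were apart in TGR-1 cells only. The line difference was 0.87 ± 0.11 with DMSO (1.83-fold, adjusted p = 8.45e-06) and 0.68 ± 0.11 with rapamycin (adjusted p = 9.69e-05). Rapamycin changed it by 0.29 (0.06 to 0.51) in TGR-1 cells, where it is listed, and by 0.09 (-0.13 to 0.32, adjusted p = 0.70) in HO15.19 cells.

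Bloc1s1, a subunit shared by BLOC-1, which sorts cargo to lysosome-related organelles, and BORC, which positions lysosomes, followed another pattern. It read 10.63, 10.61 and 10.76 in HO15.19 cells with rapamycin and 10.36, 10.49 and 10.45 with DMSO, against 10.65, 10.57 and 10.54 in TGR-1 cells with rapamycin and 10.21, 10.15 and 10.24 with DMSO. The treated arrays were above the untreated ones in both lines, and with rapamycin the lines overlapped. Its change was 0.38 (0.17 to 0.60) in TGR-1 cells, where it is listed and past the threshold, and 0.23 (0.01 to 0.45, adjusted p = 0.23) in HO15.19 cells. The TGR-1 change was short of the threshold without any 1 of 8 arrays, the 6 of TGR-1 cells and the first or second of HO15.19 cells with DMSO (0.35 to 0.41). Between the lines it did not pass the threshold with DMSO (0.23 ± 0.10, adjusted p = 0.086) or with rapamycin (0.08 ± 0.10, adjusted p = 0.58).

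The promoters of these genes bear on the motif shared by c-Myc and the TFEB family. In the RefSeq promoters of rat build GRCr8, from 250 bases before to 50 after each gene's start, 20 of the 23 members had an entry (not Cops5, Ctsb or Vamp7). The E-box CACGTG, which reads the same on both strands, stood in 3 of these 20 (15%), in 10.8% of the 1376 promoters found for genes of the 2 tables, and in 6.42% of all 33469 promoters. The longer form TCACGTGA, which contains it, stood in 2 of the 20 (10%), in 2.03% of the promoters of the listed genes and in 0.777% of all. The 3 members with a match were Bloc1s1, Ctsd and Rab31. Of these, Bloc1s1 and Ctsd hold the longer form. The stretches around the matches are shown from 5′ to 3′ on the gene's strand with each CACGTG in capitals, since they let the spacing be read. That of Bloc1s1 is chr7:1935595-1935647, that of Ctsd chr1:206968822-206969005 and that of Rab31 chr9:112828126-112828185, all on the minus strand.
Bloc1s1: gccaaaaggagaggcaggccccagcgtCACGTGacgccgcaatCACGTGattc
Ctsd: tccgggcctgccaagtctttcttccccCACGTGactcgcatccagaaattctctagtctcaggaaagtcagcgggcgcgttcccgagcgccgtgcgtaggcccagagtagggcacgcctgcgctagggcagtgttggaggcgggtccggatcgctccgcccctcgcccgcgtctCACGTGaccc
Rab31: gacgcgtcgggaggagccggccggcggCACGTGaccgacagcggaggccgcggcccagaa

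Bloc1s1 has its matches 26 and 10 bases before the start, Ctsd 157 and 10 bases before it, and Rab31 a single one 66 bases before it. A match is a run of letters and not a shown binding site. All 3 genes had a rapamycin change above 0 in both lines, as had other members with no match, and Scarb2 had no match in this window. Bloc1s1 was chosen for its TGR-1 change, and Ctsd and Rab31 for their HO15.19 change. These signs are therefore a description, and a link to the motif was not tested.

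Of the 4 members that fuse and sort membranes, 1 was higher and 1 lower in HO15.19 than in TGR-1 cells with DMSO. Vamp7 is a SNARE protein of late endosomes and lysosomes. It read 9.27, 9.02 and 9.01 in HO15.19 cells with rapamycin and 8.80, 8.97 and 9.03 with DMSO, against 8.70, 8.64 and 8.71 in TGR-1 cells with rapamycin and 8.38, 8.39 and 8.37 with DMSO. No TGR-1 array reached the HO15.19 arrays, and the difference was 0.55 ± 0.11 with DMSO (1.47-fold, adjusted p = 0.000786) and 0.42 ± 0.11 with rapamycin (adjusted p = 0.0067). Its rapamycin change was 0.30 in TGR-1 cells, where it is listed, and 0.17 (-0.07 to 0.40, adjusted p = 0.46) in HO15.19 cells.

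Snx15, a sorting nexin of endosomes, was low in 3 groups and high in the TGR-1 DMSO group. Its signals were 6.55, 6.60 and 6.47 in HO15.19 cells with rapamycin and 6.58, 6.65 and 6.64 with DMSO, against 6.51, 6.73 and 6.53 in TGR-1 cells with rapamycin and 6.86, 7.16 and 7.02 with DMSO. With rapamycin the lines overlapped. Its rapamycin change was -0.42 (-0.66 to -0.18) in TGR-1 cells, where it is listed, past the threshold but short of it without any 1 of 8 arrays (the 3 of TGR-1 cells with rapamycin, the second or the third with DMSO, the first or second of HO15.19 cells with DMSO, or the first with rapamycin, changes of -0.49 to -0.35). In HO15.19 cells the change was -0.08 (-0.32 to 0.15, adjusted p = 0.76). It was lower in HO15.19 cells with DMSO by a log2 difference of -0.39 ± 0.11 (adjusted p = 0.011), a call lost without the first HO15.19 DMSO array (-0.37, the unadjusted p was then over 0.01) or the second TGR-1 DMSO array (-0.32, adjusted p = 0.067), and with rapamycin the difference was -0.05 ± 0.11 (adjusted p = 0.76).

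The other members of this group are Vps45, a partner of SNARE proteins in endosomal fusion, and Vps36, a subunit of the ESCRT-II complex that sorts ubiquitinated cargo for the lysosome. Both are listed for HO15.19 cells, where rapamycin changed Vps45 by -0.42 and Vps36 by -0.31, with no overlap between treatments for either and neither past the threshold. In TGR-1 cells the changes were -0.25 (adjusted p = 0.28) for Vps45 and -0.02 (adjusted p = 0.95) for Vps36. The lines did not differ past the threshold for either, with DMSO or with rapamycin.

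All 4 Rab GTPases had changes above 0 with rapamycin in HO15.19 cells, between 0.01 and 0.43, where 49.1% of all probes tested did. In TGR-1 cells 3 of 4 did, where 49.5% of all probes did. Rab3d, Rab31 and Rab11a were chosen for their HO15.19 change, and Rab3d and Rab34 for their TGR-1 change. These counts are therefore a description, and the HO15.19 change of Rab34 (0.01) was -0.024 with median centring. Rab3d, a Rab of secretory vesicles, is listed for both lines. It read 8.56, 8.58 and 8.72 in HO15.19 cells with rapamycin and 8.35, 8.19 and 8.25 with DMSO, against 7.73, 7.86 and 7.64 in TGR-1 cells with rapamycin and 7.24, 7.27 and 7.43 with DMSO. None of the 4 groups overlapped. Its rapamycin change, used to choose it in both lines, was 0.36 ± 0.11 in HO15.19 cells (1.28-fold), short of the threshold, and 0.43 ± 0.11 in TGR-1 cells (1.35-fold), past it. The TGR-1 change was short of it too without any 1 of 5 arrays, the 3 of TGR-1 cells with rapamycin and the first or second with DMSO (0.37 to 0.48). Rab3d was higher in HO15.19 cells by 0.95 ± 0.11 with DMSO (1.93-fold, adjusted p = 4.08e-06) and by 0.88 ± 0.11 with rapamycin (adjusted p = 8.35e-06).

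Rab31 and Rab11a are listed for HO15.19 cells and Rab34 for TGR-1 cells. Rab31, which acts between the trans-Golgi network and endosomes, read 8.26, 8.15 and 8.02 in HO15.19 cells with rapamycin and 7.74, 7.72 and 7.68 with DMSO, against 7.57, 7.30 and 7.35 in TGR-1 cells with rapamycin and 6.96, 7.19 and 7.34 with DMSO. Treatments overlapped in TGR-1 cells only. Its HO15.19 change, 0.43 (0.17 to 0.69), passed the threshold only without the first or the third TGR-1 DMSO array, among the arrays left out. The line difference was 0.55 ± 0.12 with DMSO (1.46-fold, adjusted p = 0.0019) and 0.74 ± 0.12 with rapamycin (adjusted p = 0.000136), and the TGR-1 change with rapamycin was 0.24 (-0.02 to 0.50, adjusted p = 0.32). Rab11a, which marks recycling endosomes, changed by 0.40 in HO15.19 cells, without overlap, and by 0.08 (adjusted p = 0.83) in TGR-1 cells. Rab34, a Golgi and ciliary Rab, changed by 0.01 in HO15.19 cells (adjusted p = 0.98) and by -0.30 in TGR-1 cells. Neither differed between the lines past the threshold, although the difference in Rab34 with rapamycin had an adjusted p of 0.032 and missed the condition on the unadjusted p.

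Among the 4 regulators of Rab proteins, none passed the threshold in a rapamycin comparison or between the lines with DMSO. Rabggtb, the beta subunit of the enzyme that puts lipid anchors on Rabs, read 10.83, 10.78 and 11.02 in HO15.19 cells with rapamycin and 11.22, 11.33 and 11.10 with DMSO, against 11.44, 11.42 and 11.53 in TGR-1 cells with rapamycin and 11.47, 11.48 and 11.44 with DMSO. The treated arrays were the lower ones in HO15.19 cells, where it is listed, with a change of -0.34 (-0.57 to -0.11), and overlapped the untreated ones in TGR-1 cells, with a change of 0.00 (adjusted p = 0.99). It was lower in HO15.19 than in TGR-1 cells with rapamycin (-0.59 ± 0.11, adjusted p = 0.000399), and with DMSO the difference was -0.24 ± 0.11 (adjusted p = 0.093). Rabac1, which binds anchored Rabs, went the other way, with a change of 0.46 in HO15.19 cells (0.12 to 0.79) and a line difference of 0.61 ± 0.16 with rapamycin (adjusted p = 0.0057), against 0.38 ± 0.16 with DMSO (adjusted p = 0.072). Rab3gap2, a subunit of the complex that switches off Rab3 proteins, changed by -0.36 in HO15.19 cells and by -0.25 in TGR-1 cells (adjusted p = 0.36). Dennd5a, a DENN domain protein that binds Rab6, is listed for both lines and changed by -0.30 in HO15.19 cells and by -0.35 in TGR-1 cells. Its line difference was 0.43 ± 0.15 with rapamycin (adjusted p = 0.033, short of the condition on the unadjusted p) and 0.38 ± 0.15 with DMSO (adjusted p = 0.059). Without the second TGR-1 DMSO array the DMSO differences of Dennd5a (0.53, adjusted p = 0.015) and Rabac1 (0.56, adjusted p = 0.012) passed the threshold.

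The 2 Golgi coat members did not pass the threshold in any of these comparisons. Copb1, a subunit of the COPI coat, changed by -0.10 in HO15.19 cells (adjusted p = 0.78) and by -0.34 in TGR-1 cells, where it is listed. Arfgap1, which switches off the small GTPase ARF1 on COPI vesicles, changed by -0.37 in HO15.19 cells, where it is listed, and by 0.04 in TGR-1 cells (adjusted p = 0.92). The HO15.19 change of Arfgap1 passed without the second rapamycin array of that line (-0.52). Groups of treated and untreated arrays overlapped for both genes in both lines.

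The 2 Rab-like proteins of cilia lay on opposite sides. Ift22 read 7.10, 7.26 and 6.92 in HO15.19 cells with rapamycin and 6.72, 6.68 and 6.56 with DMSO, against 6.60, 6.46 and 6.49 in TGR-1 cells with rapamycin and 6.32, 6.15 and 6.39 with DMSO. Treated arrays were above untreated ones in both lines. Its rapamycin change was 0.44 (0.19 to 0.69) in HO15.19 cells, where it is listed, past the threshold but short of it without any 1 of 6 arrays (the first or second of HO15.19 cells with rapamycin, the 3 with DMSO, or the second of TGR-1 cells with rapamycin, changes of 0.35 to 0.47). The change was 0.23 (-0.02 to 0.48, adjusted p = 0.32) in TGR-1 cells. It was higher in HO15.19 cells by 0.37 ± 0.12 with DMSO (adjusted p = 0.021, lost without the first or second DMSO array of either line, adjusted p up to 0.10) and by 0.57 ± 0.12 with rapamycin (adjusted p = 0.000939). The DMSO call was also lost with no background correction (0.23) and with the authors' normalized values (0.23).

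Ift27 read 8.28, 8.07 and 8.48 in HO15.19 cells with rapamycin and 8.66, 8.67 and 8.42 with DMSO, against 8.76, 8.77 and 9.04 in TGR-1 cells with rapamycin and 9.16, 9.25 and 9.25 with DMSO. At each treatment the HO15.19 arrays were the lower ones. The line difference was -0.64 ± 0.13 with DMSO (0.643 of the TGR-1 level, adjusted p = 0.000844) and -0.58 ± 0.13 with rapamycin (adjusted p = 0.0017). It is listed for both lines, with rapamycin changes of -0.31 in HO15.19 cells (-0.58 to -0.04) and -0.36 in TGR-1 cells (-0.63 to -0.09).

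Of the 2 COP9 signalosome subunits, Cops3 was lower in HO15.19 cells with DMSO and Cops5, which carries the enzyme's active site, was lower with rapamycin. Cops3 read 7.97, 8.05 and 8.14 in HO15.19 cells with rapamycin and 7.80, 8.01 and 8.36 with DMSO, against 7.99, 8.09 and 8.17 in TGR-1 cells with rapamycin and 8.27, 8.59 and 8.66 with DMSO. The TGR-1 DMSO group had the highest mean, but its first array (8.27) lay below the third HO15.19 DMSO array (8.36), so these groups overlapped. The line difference was -0.45 ± 0.14 with DMSO (adjusted p = 0.021, lost without the first or second DMSO array of HO15.19 cells or the second or the third of TGR-1 cells, adjusted p up to 0.12) and -0.03 ± 0.14 with rapamycin (adjusted p = 0.88). Cops5 differed between the lines by -0.39 ± 0.12 with rapamycin (adjusted p = 0.016) and by -0.24 ± 0.12 with DMSO (adjusted p = 0.13). Rapamycin changed Cops5 by -0.31 in HO15.19 cells, where it is listed, and by -0.16 in TGR-1 cells (adjusted p = 0.56). Cops3 changed by 0.00 in HO15.19 cells (adjusted p = 0.995) and by -0.42 in TGR-1 cells, where it is listed.

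The rapamycin changes of the members spanned a narrower range than the differences between the lines, as those of all probes tested did. The median absolute change of the members was 0.29 in TGR-1 and 0.31 in HO15.19 cells, against 0.38 between the lines with DMSO. Over all probes it was 0.13 and 0.14, against 0.24. The widest change of a member was 0.56 in TGR-1 cells and -0.48 in HO15.19 cells, so that 0 members reached 1.5-fold in either line. How many of all probes reached 1.5-fold was not counted. In HO15.19 cells 2 members passed the threshold, Ift22 upward and Ctsb downward, where 5.14% of all probes tested did (2.51% higher, 2.64% lower). In TGR-1 cells 4 did, Scarb2, Rab3d and Bloc1s1 upward and Snx15 downward, where 3.96% of all probes did (2.52% higher, 1.45% lower). As each listed gene was chosen for its change in a line, these counts are a description and nothing is read from them. No member passed in both lines, and how many of all probes did so was not counted. The medians over the 23 members were 0.00 in both lines, with 11 changes above 0 in HO15.19 cells and 12 in TGR-1 cells.

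The members were also set beside all probes listed in the same way. Of the 8 listed for TGR-1 cells only, 0 passed the threshold in HO15.19 cells, where 0.169% of all 591 such probes did, and 1 had an unadjusted p under 0.05 by limma, where 13.2% did. Of the 12 listed for HO15.19 cells only, 0 passed in TGR-1 cells, where 0.267% of all 749 such probes did, and 2 had an unadjusted p under 0.05, where 12.7% did. A probe listed for 1 line only is one that the authors did not list for the other, so these counts follow in part from the listing and are a description. The sign of the change was the same in both lines for 7 of the 8 members listed for TGR-1 cells only, against 79.0% of all such probes, and for 10 of the 12 listed for HO15.19 cells only, against 74.8%. Of the 3 listed for both lines, 0 passed in HO15.19 cells, where 52.7% of all 393 such probes did, and 1, Rab3d, passed in TGR-1 cells, where 51.1% did.

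**Figure D3:**
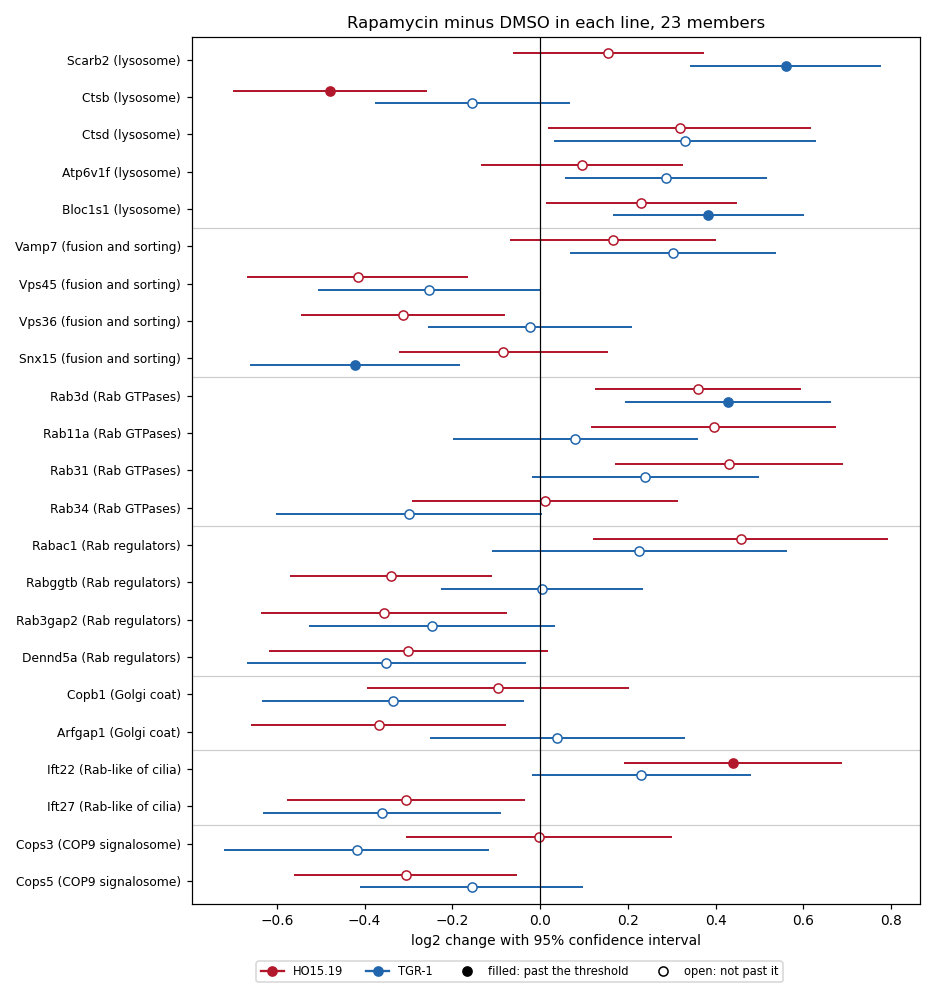
Rapamycin minus DMSO (log2, horizontal axis) for the 23 members in HO15.19 (red) and TGR-1 cells (blue), as points with 95% confidence intervals, filled where past the threshold. The changes lie between -0.48 and 0.56, and 6 of the 46 pass the threshold.

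The difference between the responses of the 2 lines was taken as the HO15.19 change minus the TGR-1 change. None of the 23 passed the threshold by limma, where 0.111% of all probes tested did, while 4 had an unadjusted p under 0.05, where 1057 of all 10852 probes did. These 4 were Scarb2 (-0.40, interval -0.71 to -0.10, adjusted p = 0.34), Snx15 (0.34, 0.00 to 0.67, adjusted p = 0.51), Rabggtb (-0.34, -0.67 to -0.02, adjusted p = 0.47) and Ctsb (-0.32, -0.63 to -0.01, adjusted p = 0.48). The arrays that chose the members enter this difference. Of the members, 8 are listed for TGR-1 cells only and 12 for HO15.19 cells only, among them all 4 named here. They were chosen for a change in 1 line that was not listed in the other, so these differences and their p-values are a description. The 95% interval reached a median of 0.36 to either side over the members.

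Other genes of the pathway were counted from 11 lists of 539 gene symbols made from general knowledge. For these symbols 64 probes had a name, 17 of them members. Only genes in the authors' tables have a name here, and the other listed genes were not read. All named genes were thus found changed by the authors in at least 1 line, and their rapamycin values are a description. The 3 lysosome lists are those of proton pump subunits (24 symbols), lysosomal hydrolases and activators (63), and lysosomal membrane proteins (30). Over them 11 of 13 probes were higher and 0 lower in HO15.19 than in TGR-1 cells with DMSO, with a median difference of 0.87. Without the members, 7 of 9 were higher, with a median of 0.58. Of all probes tested 15.7% were higher and 15.7% lower, and of the probes in the authors' tables, from which all these genes come, 27.7% were higher and 27.8% lower. The 7 higher genes that are not members include Gm2a, the activator of ganglioside breakdown (1.14), and Lgmn, the protease legumain (0.97). Asah1, acid ceramidase (0.81), and Arsb, a sulfatase (0.48), are also among them. So are Cst3 (1.01), which is the cathepsin inhibitor cystatin C and not a hydrolase, and Cln8 (0.47). Cln8 was counted with the membrane proteins but is a protein of the endoplasmic reticulum.

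**Figure D4:**
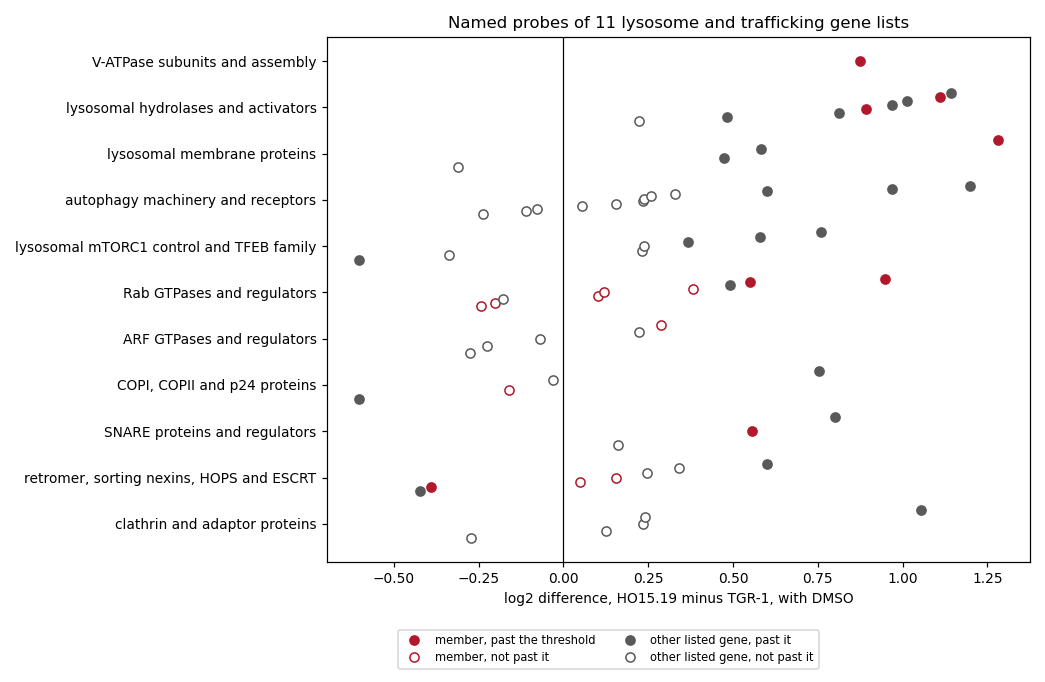
Difference of HO15.19 from TGR-1 cells with DMSO (log2, horizontal axis) for each named probe of the 11 gene lists (rows), members in red and other genes in grey, filled where past the threshold. In the 3 lysosome lists at the top, 11 of 13 probes are filled to the right of 0, while Sec13 appears in 2 lists.

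With rapamycin 8 of the 64 list probes passed the threshold in HO15.19 cells (12.5%), where 5.14% of all probes and 30.2% of those in the authors' tables did. In TGR-1 cells 11 did (17.2%), where 3.96% of all probes and 23.1% of those in the tables did. In the list of lysosomal hydrolases and activators, Gm2a rose by 0.50 in HO15.19 cells and changed by 0.41 in TGR-1 cells (adjusted p = 0.078). Of the 12 autophagy probes, 2 were higher in HO15.19 cells, for Ulk1, the kinase that starts autophagy (0.67), and Calcoco1, a receptor for autophagy of the endoplasmic reticulum (0.66). In TGR-1 cells 1 was higher and 2 lower: Map1lc3a, an LC3 protein of the autophagosome membrane (0.82), Bnip3, a receptor for autophagy of mitochondria (-0.87), and 1 of the 2 Sqstm1 probes (-0.51, the other changed by -0.18, adjusted p = 0.54). Sqstm1 encodes the receptor p62, and its probes also disagreed between the lines with DMSO, with only the second higher in HO15.19 cells (2.30-fold).

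In the list of mTORC1 control at the lysosome, Rhebl1, a relative of the mTORC1 activator Rheb, rose by 1.00 in HO15.19 cells and by 1.39 in TGR-1 cells. Sesn3, an inhibitor of mTORC1, fell by 0.90 in HO15.19 cells, with a TGR-1 change of -0.23 (adjusted p = 0.46).

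Further calls were spread over coats and sorting complexes. Chmp4c, an ESCRT-III subunit, rose by 0.43 in HO15.19 cells. In TGR-1 cells the retromer subunit Vps26b fell by 0.50, the AP-4 adaptor subunit Ap4m1 rose by 0.80, and the AP-1 subunit Ap1s2 fell by 0.56. None of the probes in the lists of ARF regulators (5), COPI and COPII proteins (4) and SNARE proteins (3) passed the threshold with rapamycin in either line.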

How the data were processed

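Total RNA of 12 cultures was hybridised to Illumina RatRef-12 arrays. The authors deposited mean bead signals from BeadStudio as intensities that had not been normalized, and also intensities after quantile normalization in BeadStudio, used only as an alternative. The detection p-value of each probe, which compares it with the negative controls of its array, was likewise deposited. The fold changes, group means and adjusted p-values in the authors' comparison tables, made in Partek 6.3 according to the submitters' processing notes, were not used. These tables gave only the probe names and the membership. The number of arrays limits the precision.

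The neqc function of limma 3.58.1 in R 4.3.3 was run on the bead signals with an offset of 16. It subtracts a background estimated from detection p-values and then applies quantile normalization. Tests covered 10852 of 22523 probes (48.2%), those detected (p under 0.05) on 3 or more arrays. A mean per group was fitted over all 12 arrays (lmFit and eBayes, 8 residual and 8.72 prior degrees of freedom), tests were two-sided, and errors are standard errors of that fit. On simulated data with 200 changed probes, the HO15.19 comparison called 20.9% of those changed 1.3-fold, 65.7% of those changed 1.5-fold and 92.4% of those changed 2-fold.

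Symbols were updated through Entrez identifiers (1551 of 1734 listed probes) or accessions (2). The members, lists and tests were chosen with earlier results of these data known. Values on every array are given for Scarb2, for members past the threshold in both lines, and for the 6 largest rises and falls past it per comparison. Rab31 and Rabggtb were added after their values were seen.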

Additional observations from a re-analysis of the deposited data

How the results depend on the processing

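For the difference between the lines with DMSO, 8 to 13 of the 23 members passed under each alternative (11 as reported, and 8 to 11 with 1 array left out). The call of Ift22 was lost with no background correction, the authors' normalized values, a mean-variance trend and the methods' t-test. That of Cops3 was lost with the spread of the compared arrays alone and with the t-test, and that of Snx15 with the t-test. Median centring in place of quantile normalization gave 8 higher and 5 lower members, and 1277 higher and 1933 lower among all probes, against 1700 and 1708. The rapamycin calls depended on the settings. In TGR-1 cells the 4 calls became 1 with median centring, 1 with the spread taken from the compared arrays alone, 2 with the methods' t-test, and 1 to 4 with 1 array left out, while Scarb2 passed in every setting run. In HO15.19 cells the 2 calls became 5 with no detection filter, 5 with probes detected on all 12 arrays, 8 with no background correction, 8 with the authors' normalized values, 4 with a mean-variance trend, 7 without the Benjamini-Hochberg condition, 0 with median centring, 0 with the spread of the compared arrays alone, 0 with the methods' t-test, and 0 to 3 with 1 array left out. The methods' t-test called 13 of all probes in HO15.19 and 58 in TGR-1 cells, against 558 and 430, and array weights called 786 in TGR-1 cells. Without the Benjamini-Hochberg condition 986 passed in HO15.19 and 864 in TGR-1 cells. In HO15.19 cells median centring gave 346 and the compared arrays alone 258. For the difference of the changes 0 members passed in every setting run, with 0 to 63 of all probes, or 336 without that condition, against 12 as reported. It could not be formed for the t-test or the compared arrays alone. The cause of these shifts was not tested.

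With the replicate number as a block (replicate block), 1 member passed in TGR-1 cells (397 of all probes), 2 in HO15.19 cells, 0 for the difference, where 7 of all probes passed, and 11 between the lines. Deviations of same-numbered arrays of a line correlated between -0.05 and 0.25, and those of differently numbered arrays between -0.29 and 0.23. Between the lines with DMSO, same-numbered arrays gave -0.23 to 0.07. With 3 arrays a group, these values cannot settle whether the numbers pair the arrays.

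Changes of sign (38 of 2093 values) were seen only for values short of the threshold in both settings. With median centring the changes were -0.075 for Rabggtb in TGR-1 and -0.024 for Rab34 in HO15.19 cells, and the line difference of Vps36 was -0.0249. With array weights Rabggtb in TGR-1 cells was at -0.00969 and Cops3 in HO15.19 cells at 0.075. The difference of the Ctsd changes was 0.018 with no background correction and 0.020 with the authors' values. Rapamycin in place of DMSO arrays, an alternative chosen after seeing the data, gave line differences of 0.11 for Rab11a, -0.11 for Vps45, -0.13 for Vps36, -0.12 for Arfgap1 and 0.079 for Copb1. With 1 array left out, TGR-1 changes ranged from -0.0098 to 0.17 for Rab11a, -0.052 to 0.029 for Vps36, -0.019 to 0.092 for Arfgap1 and -0.029 to 0.024 for Rabggtb, HO15.19 changes from -0.13 to 0.15 for Cops3 and -0.091 to 0.12 for Rab34, differences of the changes from -0.046 to 0.16 for Ift27, -0.099 to 0.21 for Dennd5a, -0.18 to 0.091 for Ctsd and -0.18 to 0.017 for Rab3gap2, and line differences from -0.0078 to 0.19 for Rab3gap2 and -0.037 to 0.11 for Vps45.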
